A study of Rattus norvegicus with 252 samples.

Results

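Bdnf and Ntrk2 encode a secreted growth factor of neurons and its receptor. Both genes were picked by their Ensembl rat identifiers, ENSRNOG00000047466 for Bdnf and ENSRNOG00000018839 for Ntrk2, and they are 2 of the 32883 genes in the deposited count table. Their RNA was followed in Long Evans rats that were heterozygous for the Q130 knock-in allele (Q130), a model of Huntington disease with a lengthened glutamine-coding repeat, and in wild-type rats (WT). Each of 60 animals, aged 2, 6 or 12 months, gave striatum, hippocampus, cerebellum and cortex, so that 240 study libraries formed 24 groups of 10 with 5 females and 5 males each. The striata of 12 of the males of 2 or 6 months were sequenced again in the later batch, in which all animals of 12 months were sequenced, while those of 2 and 6 months belonged to the earlier batch. The whole tissue of each region was sequenced, so less RNA per cell and fewer cells that express a gene cannot be told apart.

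Brain-derived neurotrophic factor, the product of Bdnf, supports the survival of neurons and the strength of their synapses. Neurons of the cortex make much of the protein found in the striatum and carry it there along their axons, while striatal neurons make little of it and respond through the receptor. That receptor, TrkB, is the product of Ntrk2 and is made by neurons and by astrocytes, in forms with and without the kinase domain that passes the signal on. A shortage of the factor in the striatum has long been studied in Huntington disease, in which striatal neurons are lost. The rat Bdnf gene has several promoters, each with a first exon of its own that is spliced to a shared coding exon, and neuronal activity acts on some of them through cAMP-response elements.

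RefSeq lists 6 start sites for rat Bdnf on chromosome 3 of the GRCr8 build, and the 250 bases before a pair of them are shown because the transcripts of Bdnf differed between tissues, as described below. Start 1 lies at position 116619633 and start 4 at position 116637858, both on the plus strand. The files do not pair transcript rows with start sites, so no row is tied to a window here. Capitals mark CGTCA, the core of the cAMP-response element TGACGTCA. It was searched for on both strands as CGTCA or TGACG.

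Bdnf start 1, chr3:116619383-116619632: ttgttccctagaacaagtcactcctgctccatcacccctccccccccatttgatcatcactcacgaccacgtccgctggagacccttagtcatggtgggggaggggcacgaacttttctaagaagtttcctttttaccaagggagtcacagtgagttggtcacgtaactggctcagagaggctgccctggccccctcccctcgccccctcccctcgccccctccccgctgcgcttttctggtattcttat
Bdnf start 4, chr3:116637608-116637857: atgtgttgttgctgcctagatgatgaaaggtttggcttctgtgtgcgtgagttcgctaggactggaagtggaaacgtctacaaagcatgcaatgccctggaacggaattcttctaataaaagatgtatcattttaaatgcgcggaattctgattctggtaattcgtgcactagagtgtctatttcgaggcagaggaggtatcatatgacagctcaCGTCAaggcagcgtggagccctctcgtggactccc

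Of the 6 Bdnf windows, 1 held a CGTCA site, that before start 4, and the window before start 1 is shown as one of those with 0. Either letter order occurred in 18.2% of the 33469 windows of 250 bases before all RefSeq starts. Neither the full TGACGTCA, present in 1.59% of all windows, nor CACGTG, present in 5.59%, was found before any of the 6 Bdnf starts. CACGTG is 1 form of the E-box, and its other forms were not searched for.

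Libraries held between 25.3 M and 50.8 M counts (M, 1000000), with a median of 34.3 M. Of the 240 study libraries, 9 stood apart, with a median correlation to the other libraries of their labelled tissue below 0.97. Among these, the library labelled Q130 striatum of 6 months, male 1, was closest to hippocampus (r = 0.986, against 0.939 to striatum). That labelled Q130 striatum of 12 months, female 2, was also closest to hippocampus but less distinctly (r = 0.976, against 0.961 to striatum). The library labelled Q130 hippocampus of 6 months, male 5, was closest to striatum (r = 0.983, against 0.933 to hippocampus). The other 6 were closest to their own tissue. Below, a hippocampal or striatal profile means only the tissue to which a library was closest. Of the 9, 8 were labelled Q130 and the other was WT cortex of 6 months, male 4, and the edgeR fits that include them were also run without them. By the animal identifiers in the labels, the striatal library closest to hippocampus at 6 months and the hippocampal library closest to striatum came from 1 rat. Replicate numbers name a library within its tissue, so the same number in another tissue can be another rat.

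Bdnf was almost silent in the WT striatum and was expressed in the other 3 regions. In TPM, a level per transcript length that sums to 1000000 in a library, it averaged 0.286 ± 0.164 in striatum, 11.4 ± 2.13 in cerebellum and 12.0 ± 2.24 in cortex (SD, n = 30 WT animals each), and hippocampus was highest, with up to 23.5 TPM and an SD of 1.97 (n = 30). The striatal mean was 42.0-fold below that of cortex and 69.9-fold below that of hippocampus, which was the identity check for the Bdnf row, so it is described without a test. No WT striatal library exceeded 0.723 TPM and no WT cortical library fell below 8.38 TPM. Striatal values rested on few reads: outside the libraries with a hippocampal profile, each study library held between 5 and 57 Bdnf counts.

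Between the other regions, Bdnf was higher in WT hippocampus than in cortex at each age (edgeR's quasi-likelihood test with Benjamini-Hochberg adjustment, the animal as a block, 10 animals an age). Its log2 fold change over cortex was 0.76 ± 0.10 (SE; adjusted p = 4.39e-08) at 2 months, 0.44 ± 0.10 (adjusted p = 0.000465) at 6 months and 0.80 ± 0.10 (adjusted p = 9.55e-09) at 12 months. Such calls were common, since 68.4%, 56.9% and 63.7% of all genes tested differed between hippocampus and cortex at 2, 6 and 12 months. Cerebellum was below cortex at 2 months (log2 fold change -0.31 ± 0.10, adjusted p = 0.00554) and at 6 months (-0.49 ± 0.10, adjusted p = 8.43e-05). At 12 months the estimate was -0.16 ± 0.10 and missed the threshold (adjusted p = 0.115), where 81.1%, 75.4% and 80.6% of genes differed between cerebellum and cortex at the 3 ages. The call at 2 months was lost when library totals replaced TMM scaling (-0.15, adjusted p = 0.165), and at 12 months the ratio of TPM levels pointed the other way (log2 ratio 0.092), so cerebellum and cortex were not separated at every age.

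**Figure D1:**
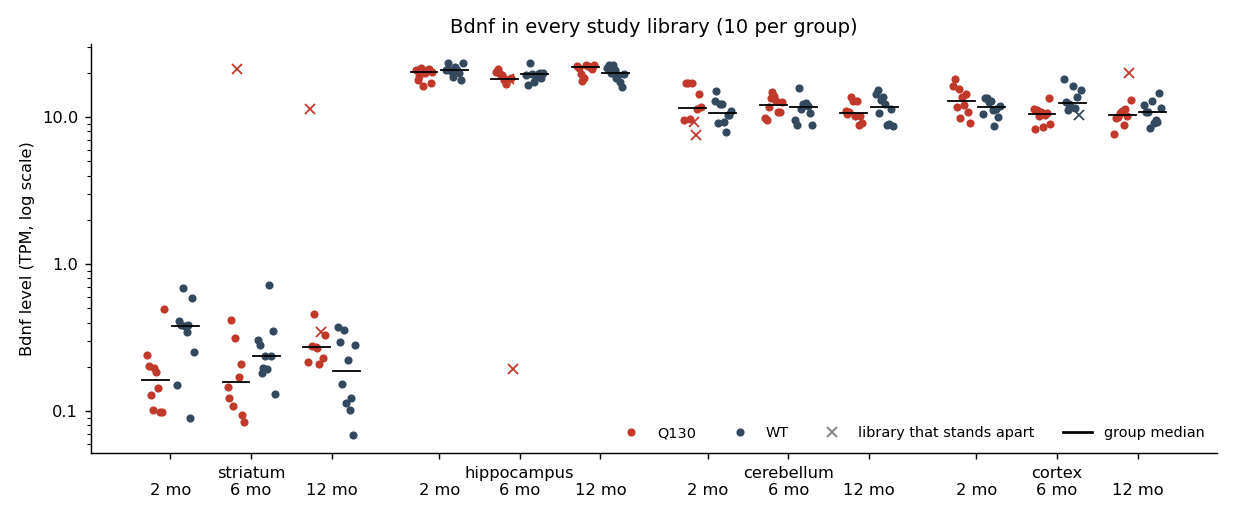
Bdnf level in TPM on a log axis for each of the 240 study libraries, by tissue and age in months, with Q130 in red left of WT in dark blue. Each point is an animal, crosses are libraries that stand apart and bars are group medians. Striatal points lie below 0.723 TPM except for 2 Q130 crosses at 21.2 and 11.4 TPM, and the other tissues lie at 7.58 TPM or above except for 1 Q130 hippocampal cross at 0.192 TPM.

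Ntrk2 was abundant everywhere and varied far less between regions. In WT animals it averaged 165 ± 16.3 TPM in striatum, 198 ± 18.4 TPM in hippocampus, 102 ± 6.74 TPM in cerebellum and 222 ± 33.0 TPM in cortex (SD, n = 30 each). Without the cortical library that stands apart, the cortical mean was 227 ± 12.7 TPM (SD, n = 29). As a description that restates the low striatal Bdnf of the identity check, the median of Ntrk2 over Bdnf TPM within a WT library was 649 in striatum, 9.98 in hippocampus, 9.08 in cerebellum and 19.3 in cortex. The striatal ratios ran from 224 to 2116 and the cortical ones from 5.81 to 28.5, or from 12.6 to 28.5 without the library that stands apart.

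In the same tests Ntrk2 was lowest in cerebellum, with log2 fold changes over cortex of -1.44 ± 0.030 (adjusted p = 1.15e-33), -1.25 ± 0.10 (adjusted p = 3.44e-13) and -1.35 ± 0.041 (SE; adjusted p = 2.00e-26, edgeR) at 2, 6 and 12 months. Hippocampus was below cortex by a smaller margin at each age (-0.25 ± 0.029, -0.22 ± 0.10 and -0.17 ± 0.040). The call at 6 months was marginal (adjusted p = 0.0497) and was lost with DESeq2 (adjusted p = 0.0826), with library totals (adjusted p = 0.181) and with no filter on low counts (adjusted p = 0.0647). It was kept without the cortical library that stands apart. Striatum was below cortex at 2 months (-0.34 ± 0.029, adjusted p = 1.81e-13) and 12 months (-0.15 ± 0.040, adjusted p = 0.00116). At 6 months it passed only without the cortical library of male 4, which stood apart and held 297 CPM of Ntrk2 (-0.27 ± 0.041, adjusted p = 3.51e-07, against -0.16 ± 0.10, adjusted p = 0.130, with it), and 78.8%, 70.9% and 76.1% of genes differed between striatum and cortex at the 3 ages. Striatum and hippocampus, neighbours in the order, differed at 2 months (striatum over hippocampus -0.092 ± 0.029, adjusted p = 0.00454) and did not pass at 6 months (0.058 ± 0.10, adjusted p = 0.608) or 12 months (0.020 ± 0.040, adjusted p = 0.662), with 76.1%, 66.4% and 71.3% of genes called.

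**Figure D2:**
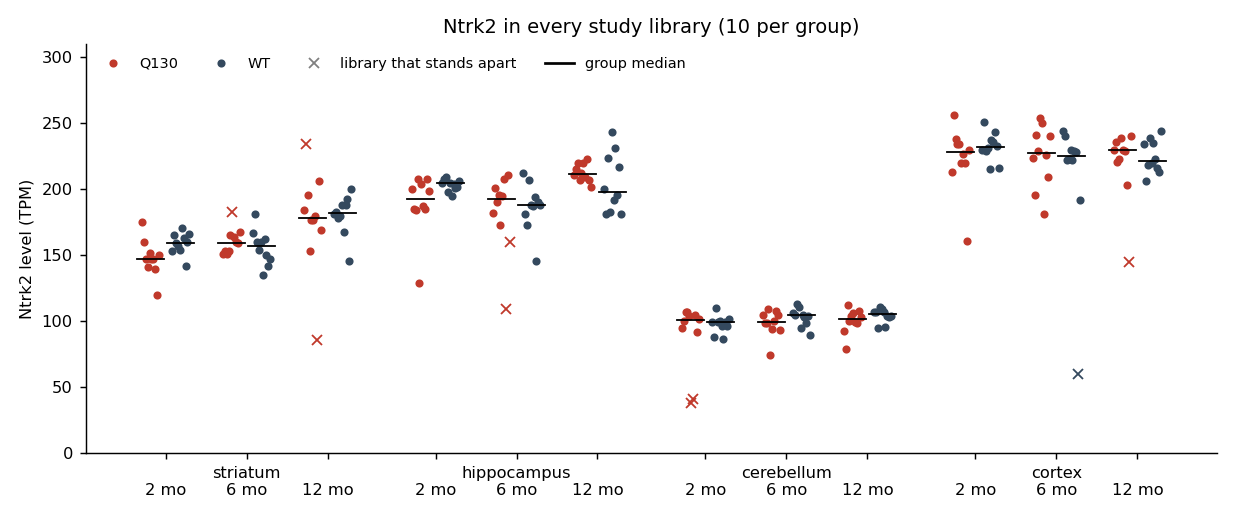
Ntrk2 level in TPM on a linear axis from 0 for each of the 240 study libraries, by tissue and age in months, with Q130 in red left of WT in dark blue. Each point is an animal, crosses are libraries that stand apart and bars are group medians. Cerebellar points lie lowest, at a WT mean of 102 TPM, and cortical ones highest, at a WT mean of 222 TPM, and the genotypes overlap in every group.

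The transcript table added a layer to this pattern. Its rows carry no gene names, but the counts of 8 rows summed to the Bdnf count and those of 3 rows to the Ntrk2 count in all 252 libraries, to within 0.0012 counts, so these rows were taken as theirs. The shares are the authors' estimates from reads that transcripts of a gene have in common, and no isoform name is paired with a row here.

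For Ntrk2, row ENSRNOT00000090914 carried most of the count in every tissue and more of it in striatum than elsewhere. Its share was 89.2% ± 1.96 in WT striatum, 79.8% ± 2.24 in hippocampus, 73.6% ± 1.75 in cerebellum and 72.3% ± 4.02 in cortex (SD, n = 30 each). It was higher in striatum than in cortex in 30 of 30 WT animals, by 18.08 percentage points at 2 months, 16.64 at 6 months and 15.91 at 12 months. Each age had an adjusted p of 0.00513 in an exact sign-flip test over 10 animals, two-sided, adjusted over 63 tests, with 0.00195 the smallest unadjusted p that 10 animals allow. The share in hippocampus was also above that in cortex at each age (29 of 30 animals, exact test, adjusted p between 0.00513 and 0.0246), while in cerebellum it passed at 1 of the 3 ages. The sign-flip tests, here and below, kept the WT cortical library of 6 months that stands apart and were not rerun without it. The mean cortical share of this row at 6 months was 73.9% with that library and 72.3% without it.

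The level of this row per length is set beside its share and was not tested between tissues. It averaged 81.5 ± 6.68 FPKM in WT striatum, 76.4 ± 5.55 FPKM in hippocampus and 78.1 ± 9.68 FPKM in cortex, against 34.7 ± 1.82 FPKM in cerebellum (SD, n = 30 each). The other rows were lower in striatum than in cortex. ENSRNOT00000082611 had 9.22 ± 1.67 FPKM in striatum, 17.6 ± 2.03 FPKM in hippocampus, 10.6 ± 0.886 FPKM in cerebellum and 25.3 ± 4.69 FPKM in cortex, and ENSRNOT00000042145 had 3.17 ± 1.12, 6.75 ± 1.82, 5.16 ± 0.941 and 13.4 ± 3.13 FPKM in the same order. The share of either row was lower in striatum than in cortex in 30 of 30 WT animals at an adjusted p of 0.00513 at each age (exact sign-flip test, 10 animals an age). Because the 3 shares add up to the whole Ntrk2 count, these tests largely restate the higher striatal share of ENSRNOT00000090914.

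Bdnf transcript shares in cerebellum and in hippocampus were each compared with those in cortex. ENSRNOT00000080190 was the leading row in WT cortex with 46.2% ± 11.1 of the Bdnf count, against 26.4% ± 6.08 in hippocampus and 12.2% ± 6.83 in cerebellum. Its share was below that of cortex in 28 of 30 animals for hippocampus and in 29 of 30 for cerebellum, and each of the 6 exact tests passed (adjusted p between 0.00513 and 0.0082). ENSRNOT00000083542 was nearly missing from cerebellum, at 0.655% ± 1.21, against 15.9% ± 3.84 in hippocampus and 10.5% ± 4.84 in cortex, and lay below cortex in 30 of 30 animals (exact test, adjusted p = 0.00513 at each age). Cerebellum had more of ENSRNOT00000077703, with 34.3% ± 9.23 against 12.8% ± 5.01 in cortex, higher in 29 of 30 animals with all 3 ages passing. ENSRNOT00000073636 also reached 34.3% ± 13.4 in cerebellum, against 19.7% ± 7.38 in cortex, and passed at 2 of 3 ages. Striatal shares of Bdnf are not compared, because a library there held too few reads to divide among rows.

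**Figure D3:**
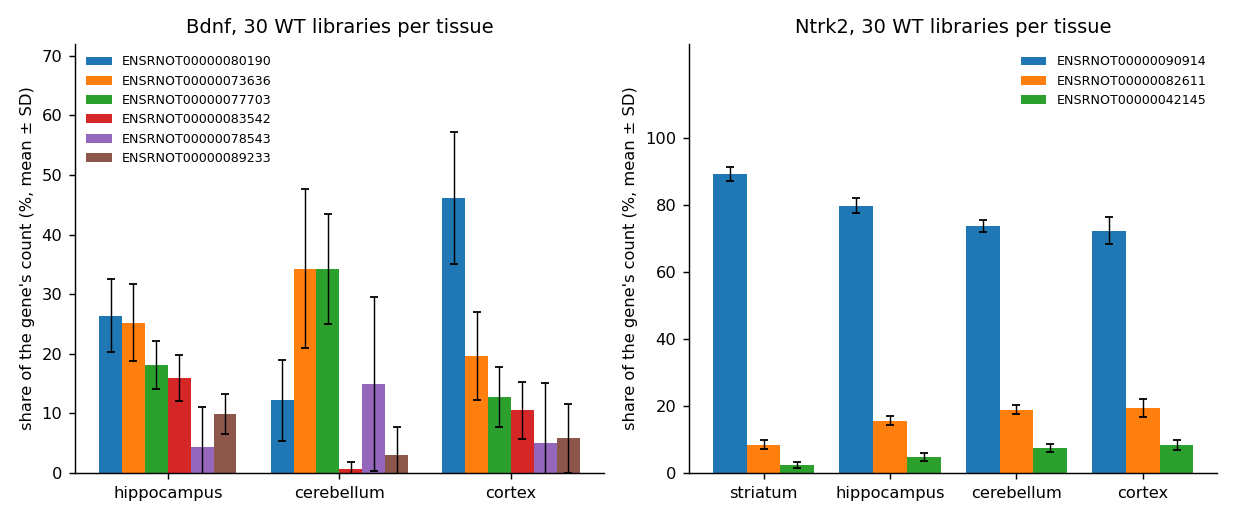
Share of the gene's count in percent (bars are means, error bars SD, 30 WT libraries per tissue) for the 6 Bdnf rows with at least 1% of the count in hippocampus, cerebellum and cortex (left) and for the 3 Ntrk2 rows in all 4 tissues (right). The tallest Ntrk2 bar is 89.2% in striatum and 72.3% in cortex, and the Bdnf row that leads in cortex at 46.2% falls to 12.2% in cerebellum.

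Genotype changed neither gene at the threshold. In 12 comparisons of Q130 with WT, 1 per tissue and age with 10 animals a group and sex as a covariate, 0 of 12 passed for Bdnf and 0 of 12 for Ntrk2 at an adjusted p under 0.05 (edgeR's quasi-likelihood test over all genes). At an unadjusted p under 0.05 there were 3 of 12 for Bdnf and 1 of 12 for Ntrk2, and DESeq2 gave an adjusted p under 0.05 in none, though for striatal Bdnf it gave no adjusted p at any age. Calls were rare altogether: 2.64% of genes were called in striatum at 2 months, 0.00636% in cortex at 2 months, 0.0709% and 1.48% in cerebellum at 6 and 12 months, and 0.00% in the other 8 comparisons. Ntrk2 estimates stayed between -0.14 and 0.11 on the log2 scale, and their 95% intervals between -0.38 and 0.37. In data simulated for cortex at 2 months alone, where the SE of Ntrk2 was 0.038, 87% of genes changed by 0.4 log2 units were recovered, with 13 false calls. The simulation gave genes of like level the same spread between animals. It changed 100 genes by 0.4 and 100 by 1 log2 units, where the real comparison called 1 gene. More changed genes make the adjusted threshold easier to pass. For both reasons this recovery need not hold for real genes. The SE of Ntrk2 was 0.13 in cortex at 6 months and 0.12 in striatum at 12 months, which were not simulated.

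**Figure D4:**
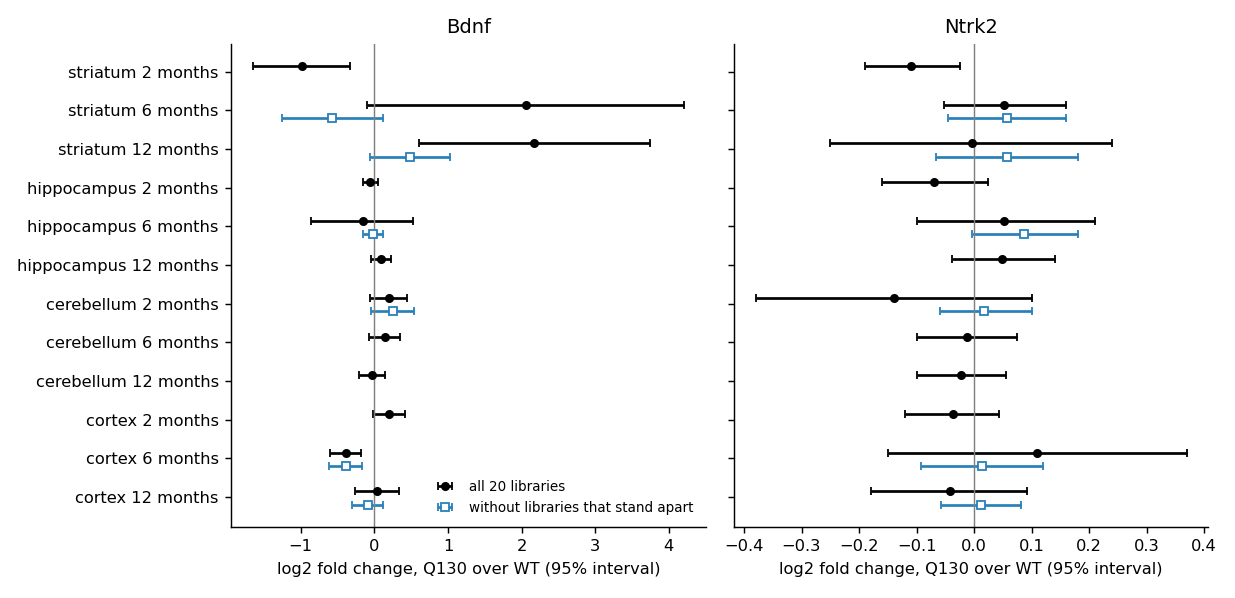
Log2 fold change of Bdnf (left) and Ntrk2 (right), Q130 over WT, with 95% intervals, for each tissue and age. Black circles use all 20 libraries and open blue squares leave out libraries that stand apart, drawn where a comparison has any. The Bdnf circles at 2.06 and 2.17 in striatum of 6 and 12 months have squares at -0.57 and 0.48, and the axes of the panels differ in scale.

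In striatum at 2 months, Bdnf was low in Q130 animals, with a lowest, median and highest value of 0.219, 0.376 and 1.11 CPM (counts scaled to a library of 1000000), against 0.234, 0.847 and 1.56 CPM in WT animals. The ranges overlapped, and 9 of 10 Q130 libraries lay below the WT median. The log2 fold change was -0.99 ± 0.32 (SE) with an unadjusted p of 0.00495 and an adjusted p of 0.0864 (edgeR). It rested on a median of 12 Bdnf counts per library in Q130 against 28.5 in WT.

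The level of cortex-enriched genes in these striata is set beside this difference. The mean level of 53 genes enriched in WT cortex at 6 months, Bdnf not among them, had a lowest, median and highest value of -1.19, -1.11 and -0.48 log2 CPM in Q130 striata of 2 months, against -1.14, -0.85 and -0.59 log2 CPM in WT striata (exact permutation within sex, two-sided, p = 0.0674, 10 a group). Across the 20 striata of 2 months, centred by genotype and sex, Bdnf followed this level with r = 0.87 and rho = 0.86 (adjusted permutation p = 0.000570 and 0.000120, 3 relations). Without the 2 striata farthest from the median r was 0.86, and within Q130 and WT it was 0.91 and 0.85. With the level as a covariate the genotype estimate for Bdnf was -0.44 ± 0.22 (adjusted p = 0.440, edgeR), and the number of all genes called by genotype was 4, against 416 without it. For striata of 6 and 12 months the level was that of another set, 59 genes enriched in WT cortex at 2 months. There r was 0.76 and 0.89 with all libraries (adjusted permutation p = 0.0403 and 0.00931). Without libraries that stand apart it was 0.26 and 0.48 (adjusted permutation p = 0.407 and 0.178). Whether the level of cortex-enriched genes has a part in the genotype difference was not tested beyond these fits.

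Repeat libraries showed how far a single striatal value can be trusted. The highest first-batch Q130 value of 2 months, male 5 with 1.11 CPM, was 0.230 CPM in the repeat, and WT male 5 of 6 months had 1.58 CPM in the repeat and 0.350 CPM in the first library. Over 12 males, repeat over first ran from -2.02 to 2.01 on the log2 scale for Bdnf and from -0.24 to 0.23 for Ntrk2, with 6 and 5 animals higher in the repeat. The mean change was -0.048 ± 0.36 for Bdnf and -0.0045 ± 0.042 for Ntrk2 (SE, edgeR with the animal as a block), and neither passed, where 3.87% of genes did. Putting the repeat columns in place of the first ones left Bdnf at -0.83 ± 0.35 in striatum of 2 months (adjusted p = 0.442, edgeR), with 0 of all genes called at the threshold. Only the males sequenced again were exchanged, so that fit mixed libraries of the earlier and later batch with no term for batch. How much the mixed batches added to the spread was not tested.

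**Figure D5:**
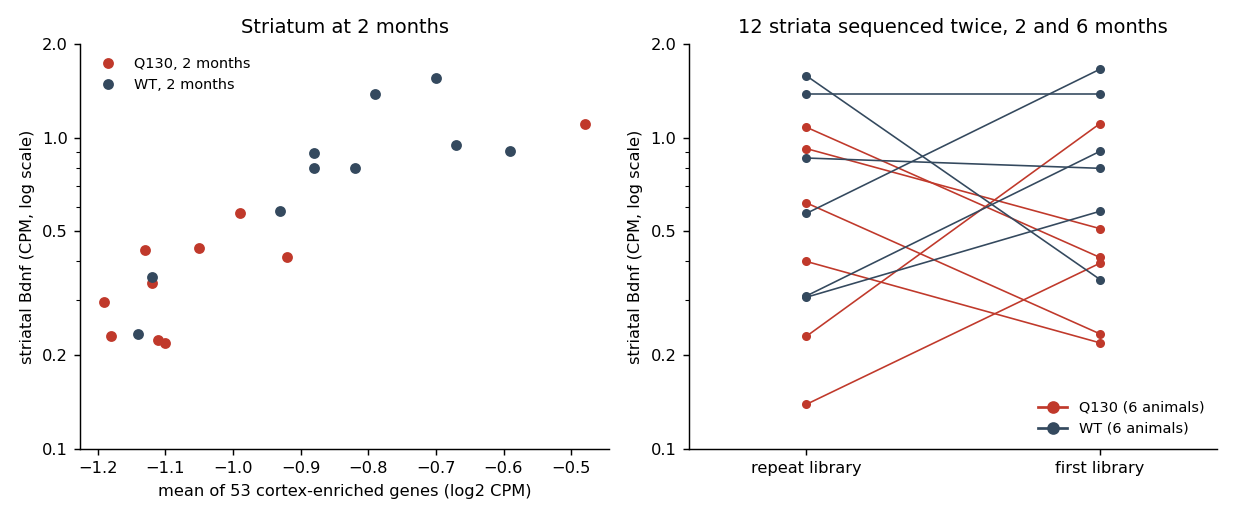
Left, striatal Bdnf in CPM (log axis) against the mean log2 CPM of 53 cortex-enriched genes in the 10 Q130 (red) and 10 WT (dark blue) study libraries of 2 months, 1 point per animal. Right, Bdnf CPM (log axis) in the repeat and the first library of 12 striata, 1 line per animal. On the left the points rise together (r = 0.87 after centring by genotype and sex), and on the right lines cross, with changes of -2.02 to 2.01 log2 units.

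At 6 and 12 months the striatal Bdnf estimates were set by single libraries. Q130 striata of 6 months had 0.219 to 46.6 CPM with a median of 0.363 CPM, against 0.350 to 1.66 CPM with a median of 0.563 CPM in WT. The value of 46.6 CPM came from the library with a hippocampal profile and the next highest of that age was 1.66 CPM, in WT. With it the log2 fold change was 2.06 ± 1.03 (SE, adjusted p = 0.986, edgeR) and without it -0.57 ± 0.33 (adjusted p = 0.904). At 12 months Q130 striata had 0.455 to 24.7 CPM with a median of 0.634 CPM, against 0.179 to 0.784 CPM with a median of 0.418 CPM in WT, and 10 of 10 Q130 values exceeded the median of WT. The log2 fold change was 2.17 ± 0.75 (adjusted p = 0.496), and without both libraries that stand apart it was 0.48 ± 0.26 (adjusted p = 0.446).

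The striatal estimates thus ran from below to above 0 with age, and the change between ages was tested in 1 fit of all 60 striata. Between 12 and 2 months the genotype effect on Bdnf differed by 3.72 ± 1.17 log2 units (adjusted p = 0.0652), and without libraries that stand apart by 1.45 ± 0.45 (unadjusted p = 0.00225, adjusted p = 0.0532), where 1.20% of genes were called with all libraries. Each genotype effect was taken within 1 batch, but age and batch cannot be told apart in their difference. Between 6 and 2 months it was 3.88 ± 1.15 (adjusted p = 0.590) with all libraries and 0.39 ± 0.45 (adjusted p = 0.740) without those that stand apart, with 0.00% of genes called. Averaged over ages, striatal Bdnf was 1.54 ± 0.47 (adjusted p = 0.424, 0.0124% of genes called) with all libraries and -0.37 ± 0.18 (adjusted p = 0.999) without the 3 that stand apart. In the other tissues the averages for Bdnf were -0.037 ± 0.11 in hippocampus, 0.10 ± 0.065 in cerebellum and -0.046 ± 0.073 in cortex, and those for Ntrk2 lay between -0.054 and 0.011 over the 4 tissues. None passed, where 0.0124%, 0.126% and 0.00621% of genes were called in hippocampus, cerebellum and cortex. The changes of the genotype effect between ages passed in none of these tissues for either gene, with 0.00629% of genes called in cerebellum between 12 and 2 months and 0.00% in the others.

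In cortex, the main source of the factor for the striatum, Bdnf at 6 months gave 18.6, 22.5 and 29.8 CPM as the lowest, median and highest value in Q130 animals, against 23.4, 29.0 and 38.5 CPM in WT animals. The ranges overlapped and 9 of 10 Q130 values lay below the WT median. The log2 fold change of -0.39 ± 0.10 (SE) had an unadjusted p of 0.000997 and an adjusted p of 0.709 over 15757 genes (edgeR), and it was -0.39 without WT male 4. At 2 months the estimate had the other sign (0.20 ± 0.10, unadjusted p = 0.0652), with 8 of 10 Q130 values above the WT median of 24.9 CPM, and the genotype effect at 6 months differed from that at 2 months by -0.59 ± 0.18 (unadjusted p = 0.00156, adjusted p = 0.737, with 0.00% of genes called). At 12 months it was 0.036 ± 0.14, and -0.090 ± 0.10 without Q130 male 4, whose library stood apart with 43.7 CPM.

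Hippocampal Bdnf did not pass at any age. Its Q130 over WT estimates were -0.054 ± 0.052 at 2 months, -0.16 ± 0.33 at 6 months and 0.089 ± 0.063 at 12 months (SE, adjusted p between 0.752 and 0.999, edgeR). The wide error at 6 months came with the library of striatal profile, at 0.510 CPM, beside 34.6 to 44.7 CPM in the other 8 Q130 animals once male 3, which also stood apart, was left out, and 33.6 to 47.9 CPM in WT. Cerebellar estimates were 0.20 ± 0.12, 0.14 ± 0.10 and -0.037 ± 0.083 at 2, 6 and 12 months (adjusted p between 0.587 and 0.973).

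By unadjusted p, Ntrk2 came closest to a genotype difference in striatum at 2 months. Q130 striata had 505, 588 and 676 CPM as the lowest, median and highest value, against 585, 641 and 659 CPM in WT striata, and 9 of 10 Q130 libraries lay below the WT median. The log2 fold change was -0.11 ± 0.040 (SE, unadjusted p = 0.0135, adjusted p = 0.137, edgeR). With the repeat columns, in the fit that mixed both batches, it was -0.027 ± 0.047 (adjusted p = 0.890, edgeR). The 3 Q130 males sequenced again had 650 to 656 CPM in their repeats and 555 to 606 CPM in their first libraries, and the 3 WT males had 569 to 642 CPM in their repeats and 645 to 657 CPM in their first libraries. In cerebellum at 2 months the Ntrk2 estimate was -0.14 ± 0.11 with all libraries and 0.018 ± 0.038 without Q130 males 1 and 2, whose libraries stood apart at 142 and 170 CPM. In hippocampus, 4, 8 and 10 of 10 Q130 values lay above the WT median of Ntrk2 at 2, 6 and 12 months. The counts were 1, 7 and 6 in striatum, 4, 6 and 3 in cerebellum and 2, 6 and 5 in cortex. Animals of 12 months belonged to the later batch. The hippocampal estimates were -0.070 ± 0.045, 0.052 ± 0.074 and 0.049 ± 0.042 (SE, adjusted p between 0.709 and 0.999, edgeR).

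Transcript shares did not differ by genotype after adjustment in any of 90 exact tests, with genotype permuted within sex, two-sided. Unadjusted, 5 of 90 had a p under 0.05. The smallest was 0.00315 for Ntrk2 row ENSRNOT00000090914 in striatum at 2 months, 86.9% in Q130 against 88.8% in WT (adjusted p = 0.279, 10 animals a group).

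Between 6 and 2 months, the ages sequenced in the earlier batch, 1 of 16 tests passed: Ntrk2 in Q130 striatum, by 0.20 ± 0.052 on the log2 scale (SE, adjusted p = 0.0214, edgeR, 10 animals an age). Those striata had 615, 664 and 796 CPM as the lowest, median and highest value at 6 months, against 505, 588 and 676 CPM at 2 months, and the ranges overlapped. The value of 796 CPM, from male 5, lay far above its group, and no fit was run without it. In the same comparison 7.59% of genes were called. It also passed in DESeq2 (adjusted p = 0.00494) and without the library that stands apart (adjusted p = 0.00799). The 3 repeat libraries of 6 months averaged 634 ± 54.6 CPM and the 3 of 2 months 653 ± 3.18 CPM (SD), where the first libraries of the same animals had 645 to 691 CPM and 555 to 606 CPM. In WT striatum the Ntrk2 change was 0.040 ± 0.039 (adjusted p = 0.532, 16.9% of genes called), and the difference between the genotypes did not pass (0.16 ± 0.11, adjusted p = 0.915). The 8 Bdnf changes did not pass in any tissue or genotype, with adjusted p between 0.0716 and 0.951. The lowest was in Q130 cortex (-0.35 ± 0.12, 8.74% of genes called), where DESeq2 passed it (adjusted p = 0.0232), and WT cortex gave 0.25 ± 0.10 (adjusted p = 0.194, 3.54% of genes called). The remaining comparisons, in hippocampus and cerebellum of Q130 and WT, called 1.01%, 17.1%, 6.63% and 19.1% of genes.

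Sex was tested in the same 12 fits, female over male. At 2, 6 and 12 months, 0.159%, 0.120% and 0.0383% of genes were called in striatum, 0.115%, 0.0764% and 0.373% in hippocampus, 0.128%, 0.335% and 0.423% in cerebellum and 0.140%, 0.171% and 0.0775% in cortex. It passed for neither gene in edgeR, with 5 of 12 Bdnf tests and 0 of 12 Ntrk2 tests under an unadjusted p of 0.05. The smallest was Bdnf in cerebellum at 12 months, 0.33 ± 0.083 on the log2 scale (unadjusted p = 0.000707, adjusted p = 0.103, edgeR, 10 animals a sex). DESeq2 passed it, at 0.33 ± 0.085 and an adjusted p of 0.0175. The striatal estimates of -2.49 at 6 months and 2.01 at 12 months, also under an unadjusted p of 0.05, included the libraries with a hippocampal profile, and without libraries that stand apart they were 0.0098 ± 0.32 and 0.46 ± 0.27.

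Cortical and cerebellar Bdnf were correlated across animals. After removing the means of age, genotype and sex, log2 CPM in cerebellum and cortex correlated over 60 animals with r = 0.44 and rho = 0.44 (permutation tests within those cells, p = 0.00292 and 0.00208, adjusted over 16 relations 0.0467 and 0.0333). Without the 2 animals farthest from the median r was 0.47. Within the earlier batch (40 animals) r was 0.67, and within the later batch (20 animals) it was -0.04. The difference between the batches was not tested, and the later batch holds the animals of 12 months alone, so batch and age cannot be told apart in it. Without animals with a library that stands apart, r was 0.53 over 56 animals (adjusted p = 0.0106), 0.68 in the earlier batch and 0.12 in the later one. The other 15 relations, between tissues for either gene and between both genes within a tissue, did not pass. Striatal and hippocampal Bdnf gave r = -0.70 (adjusted p = 0.422), and r was -0.12 without libraries that stand apart, which leaves out the rat with both mirrored profiles.

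By a fixed rule, the genes whose mean log2 CPM over the 12 WT groups was most like that of each member were found among 14187 genes with at least 1 CPM on average. For Bdnf these were ENSRNOG00000037476 (Pearson r = 0.997, and 0.995 over the 12 Q130 groups) and ENSRNOG00000057161 (0.996 and 0.993). For Ntrk2 they were ENSRNOG00000003762 (0.995 and 0.989) and ENSRNOG00000005479 (0.994 and 0.996). Such likeness was common, since 407 genes correlated with Bdnf and 939 with Ntrk2 at r above 0.9. The points are 4 tissues at 3 ages and share animals, so these values only describe a pattern of tissue levels.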

How the data were processed

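RNA sequencing libraries of frozen brain tissue were made by standard Illumina methods, per the labels' protocols. Which aligner, counter and build were used is not given in the sources used here. Per gene and per transcript, the authors deposited estimated counts, which are not all whole numbers (8.19% of gene values), and they were rounded for testing. The gene table named for FPKM sums to 1000000 in every column, so its deposited values were read as TPM. The transcript FPKM values were used as deposited. Of the 32883 identifiers, 0 matched a reference gene name, so the pathway and marker lists could not be tested, and Bdnf and Ntrk2 rest on the identifiers that define them. The defining markers of each labelled tissue and the targeted gene were not checked for the same reason. The members and lists were chosen with earlier results of these data known.

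The 12 males sequenced again have a pair of columns, and the dotted name of each pair was read as the repeat, an inference that the labels do not settle. Fits used edgeR 4.0.16 under R 4.3.3 (filterByExpr, TMM, robust quasi-likelihood F test, adjusted p under 0.05 called a change). CPM values use TMM library sizes over all libraries, and log2 CPM a prior count of 2. Cortex-enriched genes were at least 2 log2 units above every other tissue in WT at another age, and above 0 log2 CPM in cortex. Correlations used 100000 permutations. Other tests enumerated every permutation. The fit was tested on simulated data. Named genes were the 2 members and, by rule, the 2 identifiers most like each. The tissue tests of transcript shares, the covariate fit and striatum over hippocampus were added after values were seen. Alternatives were DESeq2 1.42.0, no filter, library totals, a replicate block, exchanged repeat columns and leaving out libraries that stand apart. Animals with the same number were not treated as pairs in the main fits. Replicates are separate animals, and standard errors cover the spread between them.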

Additional observations from a re-analysis of the deposited data

Results flagged for a closer look

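Of 48 groups of 10 libraries, 24 for each gene, 14 held a value far from the nearest other library of its group. If values had a normal spread, chance alone would flag about 1 group in 20. Raw CPM, above all of striatal Bdnf with its few counts, need not have that spread, so the rate here is not known. Of the 14 values, 8 come from libraries that stand apart. For Bdnf these values include 46.6 CPM in the library labelled Q130 striatum of 6 months, male 1, closest to hippocampus. The library labelled Q130 striatum of 12 months, female 2, also closest to hippocampus, held 24.7 CPM. That value lay between the medians of WT striatum (0.418 CPM) and WT hippocampus (41.4 CPM) of 12 months. The library labelled Q130 hippocampus of 6 months, male 5, with a striatal profile, held 0.510 CPM. It came from the same rat as the value of 46.6 CPM. Another flagged value was 43.7 CPM in Q130 cortex of 12 months, male 4. Among striata that did not stand apart, Q130 male 5 of 2 months had 1.11 CPM and WT male 2 of 6 months had 1.66 CPM.

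For Ntrk2, values from libraries that stand apart were 297 CPM in WT cortex of 6 months, male 4, 428 CPM in Q130 hippocampus of 6 months, male 3, 494 CPM in Q130 cortex of 12 months, male 4, and 316 CPM in Q130 striatum of 12 months, male 3. The others were 499 CPM in Q130 hippocampus of 2 months, female 5, 250 CPM in Q130 cerebellum of 6 months, female 5, 257 CPM in Q130 cerebellum of 12 months, female 2, and 796 CPM in Q130 striatum of 6 months, male 5, the only one of the 8 Ntrk2 values that lay above its group.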

How the results depend on the processing

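No call of Bdnf or Ntrk2 by genotype appeared under any alternative run, and DESeq2 gave no adjusted p for striatal Bdnf at 3 of 3 ages. Without libraries that stand apart, 9 genotype estimates changed sign. For Bdnf they became -0.57 in striatum at 6 months, -0.090 in cortex at 12 months, -0.37 averaged in striatum and 0.0078 averaged in hippocampus. For Ntrk2 they became 0.057 in striatum at 12 months, 0.012 in cortex at 12 months, 0.018 in cerebellum at 2 months, 0.00037 averaged in striatum and -0.0056 averaged in cortex. With the cortex-enriched level as a covariate as well, chosen after seeing the data, Bdnf in striatum at 6 months was -0.48 and Ntrk2 at 12 months 0.058. With library totals in place of TMM, Ntrk2 averaged in hippocampus was -0.0025, striatum over hippocampus -0.036 and -0.021 at 6 and 12 months, 6 over 2 months in Q130 hippocampus -0.0013, and Bdnf in WT cerebellum over cortex at 2 months -0.15. Ntrk2 in WT hippocampus over cortex at 6 months lost its call at -0.22 with no filter, -0.16 with library totals and -0.20 with DESeq2, and its striatum at 6 months gained one at -0.27 without the library that stands apart. DESeq2 added calls for 6 over 2 months of Bdnf in Q130 cortex (-0.35) and of Ntrk2 in WT hippocampus (-0.10). Deposited TPM gave 0.092 for WT cerebellar Bdnf over cortex at 12 months. Correlations without libraries that stand apart became 0.17 for Bdnf in striatum and cerebellum, -0.03 for Bdnf in hippocampus and cerebellum, -0.02 for Ntrk2 in hippocampus and cerebellum, and -0.10 for both genes in cerebellum. The cause was not tested.

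All genes called by genotype in striatum at 2 months numbered 416, with 0 with the repeat columns and 968 with DESeq2. The repeat columns brought libraries of the later batch into that fit, which had no term for batch. In cerebellum they ran from 10 to 345 at 6 months and from 105 to 658 at 12 months. In the other 9 comparisons they were at most 5. Numbers shared by the genotypes were not read as pairs in the main fits. Of 120 same-numbered pairs, 20 correlated above 0.1, which alone cannot show whether numbers pair animals. With the replicate number as a block, Bdnf in striatum was -0.98, -0.021 and 1.10 at 2, 6 and 12 months, and 254 genes were called in striatum at 2 months and 18 and 137 in cerebellum at 6 and 12 months. Striatal Bdnf values rest on 5 to 57 counts, apart from the libraries with a hippocampal profile.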
